A study of Mus musculus with 1 sample.

Results

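The genes described here are 33 mouse genes of fatty acid and triglyceride synthesis, taken from a list of gene symbols. The rule uses no measured value, although the list was drawn up with earlier results of these data known. All 33 were found among the 32285 genes of the count matrix. They were read in 1 droplet single-cell RNA library of whole pancreas from Scap f/f mice aged 2 weeks, of both sexes, for which 5 to 6 pancreata were pooled. Scap f/f mice carry floxed Scap alleles and, by the study's methods, no Cre, so that Scap was intact. The library, titled wildtype, served as the control for mice that lose Scap in the pancreas, whose library was not analysed here. With 1 pool of animals there is no replicate, so no test was made, and every interval below is a 95% interval that covers counting error only.

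Fatty acid synthesis starts from mitochondrial citrate, which is exported to the cytosol and split into acetyl-CoA. Acetyl-CoA carboxylase turns acetyl-CoA into malonyl-CoA, and fatty acid synthase builds palmitate from both with NADPH. Elongases and desaturases then alter the chain, acyl-CoA synthetases activate it, and acyltransferases and lipins assemble it on glycerol up to triglyceride. Many of these genes are targets of the SREBP transcription factors, which SCAP escorts from the endoplasmic reticulum, and some are also targets of ChREBP, a glucose-responsive factor encoded by Mlxipl.

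The library held 11789 barcodes with 51540177 UMIs (unique molecular identifiers, tags that stand for 1 captured transcript each), from 500 to 174899 per barcode. Between the UMI limits of 800 and 100000 and under 15% mitochondrial UMIs, 10947 barcodes with 49202966 UMIs were kept, and 9686 of these fell into 13 classes set by marker genes. Only classes of at least 50 cells are described, which were 948 acinar-like, 65 duct-like, 5923 fibroblast-like, 132 smooth muscle-like, 293 endothelial-like, 521 mesothelial-like, 52 Schwann-like, 408 red blood cell-like, 846 T cell-like, 349 B cell-like, 55 macrophage-like and 59 dendritic-like cells. Genes with the largest folds included Cel and Cela2a in acinar-like, Sox9 in duct-like and Dpt in fibroblast-like cells. The gates used these genes, so their rank is no separate check of the class names. Spp1 in duct-like and Postn in fibroblast-like cells were also among the leading genes and were not used by the gates. Of the UMIs in acinar-like cells 43.9% came from digestive enzyme genes, as did 6.26% in duct-like cells, and globins gave 78.6% in red blood cell-like cells. A level below is therefore the number of UMIs of a gene per 1000000 UMIs of a class outside the 33 listed digestive enzyme genes, with the exact Poisson interval in parentheses. The counts come from the 3′ ends of transcripts, which are captured with an efficiency that differs between genes, so levels are compared between classes and not between genes.

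All 33 members are protein-coding in GENCODE M21, which is on GRCm38 (mm10). The 5 desaturase genes lie in 2 groups of neighbours on chromosome 19: Scd2 (chr19:44293674-44306864, plus strand) beside Scd1 (chr19:44394455-44407879, minus strand), and Fads3 (chr19:10041569-10060110) beside Fads2 (chr19:10062765-10101746) and Fads1 (chr19:10182888-10196877). Fasn, fatty acid synthase, lies at chr11:120805846-120824547, Acaca at chr11:84129672-84401651, Acacb at chr5:114146535-114250761 and Thrsp at chr7:97412938-97417730. The loci of 12 members overlap a gene on the other strand, among them Elovl1 with Cdc20, Acsl5 with Zdhhc6, Agpat1 with Egfl8 and Agpat2 with Egfl7. The default counting assigns reads by strand, which keeps genes on opposite strands apart. Acsl3 overlaps Utp14b on its own strand, so its value depends on how overlapping reads were assigned. Of the 3′ sequence, Scd1 shared 39 stretches of 31 bases with Scd3, and Fads2 shared 24 with Fads3.

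Promoter sequence was available from RefSeq (GRCm38.p6) for 27 of the 33 members, in 35 windows of 250 bases before a transcript start. CCAAT on either strand, the site of NF-Y, a partner of SREBP at lipid genes, stood in 17 of the 35 windows (48.6%), against 33.8% of all 32851 windows of this length. TCACNCCAC, the form of the classical sterol regulatory element, stood on either strand in 1.05% of all windows and in those of 2 members, Acsl1 and Mlxipl. CACGTG, an E-box read by many factors, stood in 6.02% of all windows and in those of Elovl5, Lpin2, Mlxipl and Slc25a1. TCANNTGA, which can overlap the other E-box forms, stood in 7.09% of all windows and in those of Fads3, Pnpla3 and Thrsp. A match describes letters and does not show that a factor binds there. The 150 bases before a start are printed 5′ to 3′ for Fasn, the enzyme the pathway is named for, and for both members with TCACNCCAC. Capitals mark CCAAT or TCACNCCAC on either strand. The Fasn window (chr11:120824548-120824697, minus strand) ends at the annotated gene start, while those of Mlxipl (chr5:135106741-135106890, plus strand) and Acsl1 (chr8:46490816-46490965, plus strand) precede a later RefSeq start, 17001 and 19929 bases into the gene.
Fasn: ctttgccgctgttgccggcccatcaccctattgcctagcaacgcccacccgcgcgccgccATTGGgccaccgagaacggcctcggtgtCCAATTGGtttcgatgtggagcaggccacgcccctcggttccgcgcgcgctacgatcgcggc
Mlxipl: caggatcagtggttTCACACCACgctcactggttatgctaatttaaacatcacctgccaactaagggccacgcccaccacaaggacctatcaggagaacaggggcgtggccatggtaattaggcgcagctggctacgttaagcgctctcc
Acsl1: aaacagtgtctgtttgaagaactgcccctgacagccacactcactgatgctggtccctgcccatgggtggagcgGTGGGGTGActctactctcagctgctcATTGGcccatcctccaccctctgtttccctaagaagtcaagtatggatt

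Summed over the 33 members, the level was highest in duct-like cells, at 1815 (1746 to 1887). Red blood cell-like cells stood at 157 (129 to 189) with globin UMIs in the denominator and at 768 (631 to 927) without them, so their place in the order depends on that choice, and single levels given for them keep globin unless stated. Schwann-like cells stood at 1378 (1158 to 1627), mesothelial-like cells at 1093 (1057 to 1131) and acinar-like cells at 1090.0 (1066 to 1115). The intervals of mesothelial-like and acinar-like cells overlapped, so these neighbours in the order were not told apart. The acinar-like level depended on the processing: it was 857 at the study's upper limit of 10000 UMIs and 611 with enzyme UMIs in the denominator, below the 939.4 and 929 of fibroblast-like cells under the same settings. Smooth muscle-like cells had 949 (867 to 1036), the endothelial-like class had 871 (832 to 911), and fibroblast-like cells lay between them at 939.9 (927 to 953). The immune classes came below these, from 755 (689 to 825) in B cell-like to 593 (500.5 to 697) in dendritic-like cells. Duct-like cells were also the deepest class, with a median of 13157 UMIs per cell against 5912.5 in acinar-like and 2660 in fibroblast-like cells, and the part of depth in their level was not tested. Of the 31 members with at least 20 UMIs over the classes, 12 had their highest level in duct-like cells, against 13.5% of all 16500 such genes, and 5 in Schwann-like cells, against 15.1%. The other 14 were spread over 7 classes with 1 to 3 each. For most members the interval of the highest class overlapped that of another, and 5 (Acacb, Me1, Elovl5, Elovl7 and Scd1) had no such overlap. The share of all genes without such an overlap was not determined, so whether 5 is many or few cannot be told. Without globin in the denominator, red blood cell-like cells would be highest for Acsl1 and Lpin2.

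**Figure D1:**
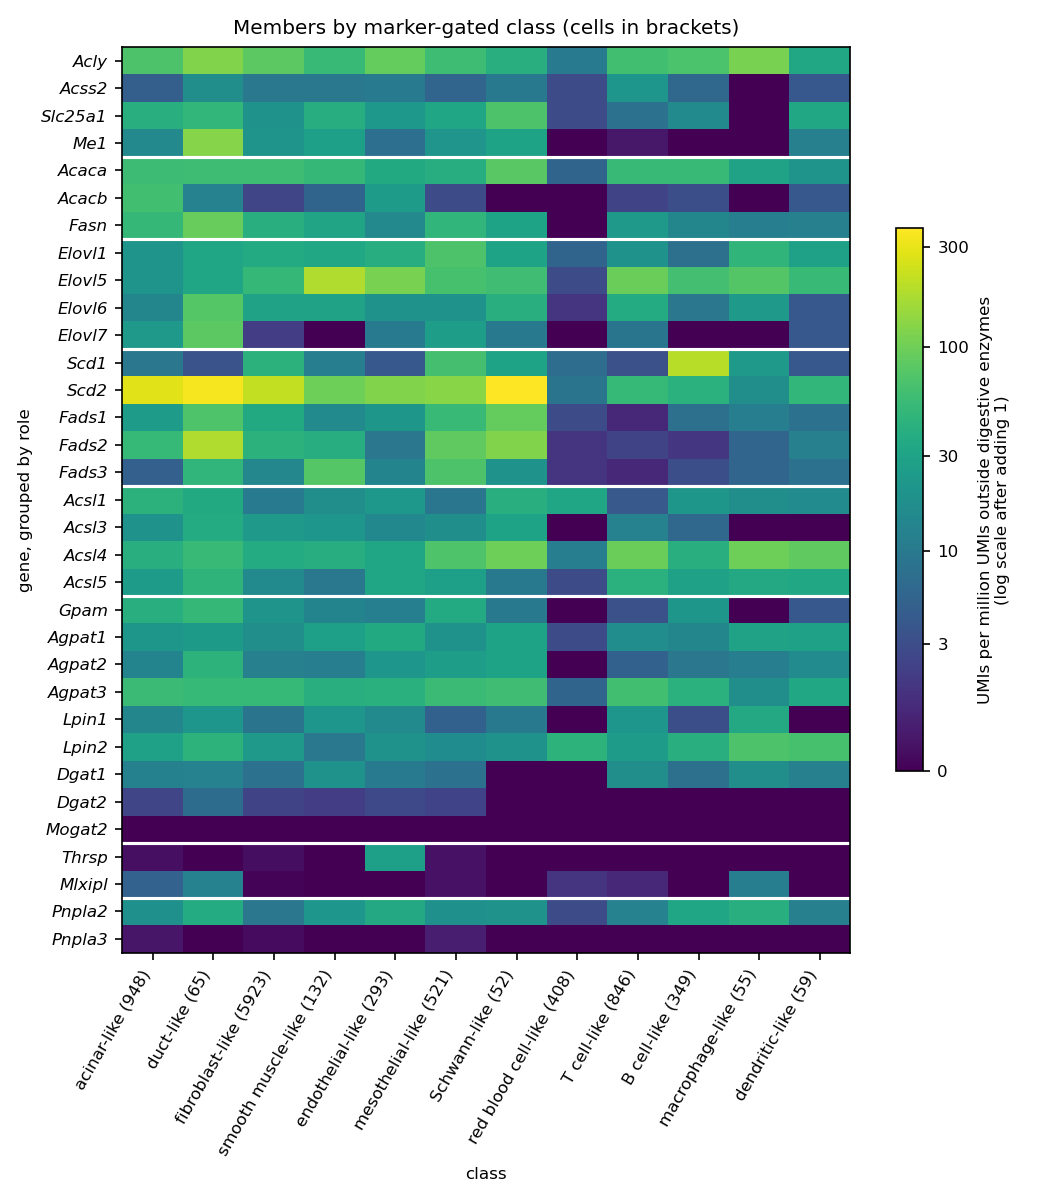
Level of each of the 33 members (rows, grouped by role) in the 12 classes of at least 50 cells (columns, with the number of cells), as UMIs per 1000000 outside digestive enzymes on a log scale after adding 1. Scd2 is high in acinar-like, duct-like and fibroblast-like cells, Scd1 in B cell-like cells, Acacb in acinar-like cells and Thrsp in endothelial-like cells.

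**Figure D2:**
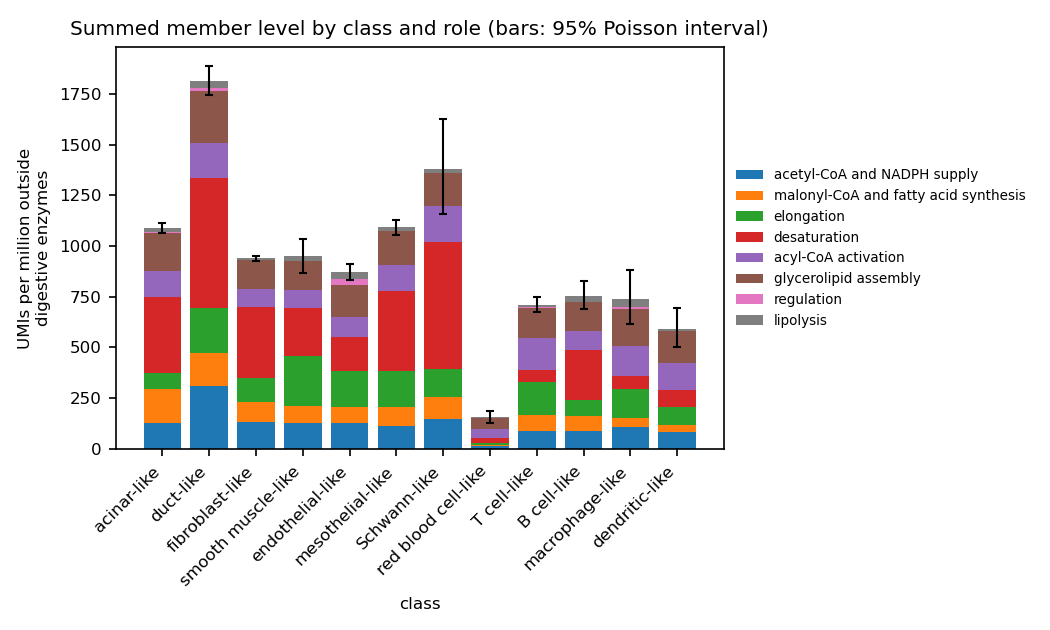
Summed level of the members in each class, as UMIs per 1000000 outside digestive enzymes, stacked by role, with the 95% Poisson interval of the total. Duct-like cells reach 1815; the 157 of red blood cell-like cells keeps globin UMIs in the denominator and is 768 without them.

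The supply genes provide acetyl-CoA and NADPH. Acly, which splits citrate into acetyl-CoA, was seen in every class, from 118 (101 to 137) in duct-like and 109.9 (66.2 to 172) in macrophage-like cells to 32.5 (14.0 to 64.0) in dendritic-like cells, red blood cell-like cells left aside. Acinar-like cells had 69.0 (63.0 to 75.4) and fibroblast-like cells 82.2 (78.2 to 86.2). Me1, the malic enzyme that makes cytosolic NADPH, differed more between classes: 124 (107 to 144) in duct-like cells, 20.3 (18.4 to 22.4) in fibroblast-like cells and 15.2 (12.4 to 18.3) in acinar-like cells. T cell-like cells held 1 Me1 UMI. B cell-like cells held 0, a count with an upper limit of 4.73 as a level. The mitochondrial Me2 was counted in both, so that Me1 made up 82.3% of Me1 and Me2 UMIs in duct-like, 69.3% in fibroblast-like, 30.8% in acinar-like and 0.610% in T cell-like cells. Slc25a1, the mitochondrial citrate carrier, was at 39.3 (34.8 to 44.2) in acinar-like, 48.5 (37.7 to 61.4) in duct-like and 19.3 (17.4 to 21.3) in fibroblast-like cells. Acss2, which makes acetyl-CoA from acetate, was at 21.3 (15.6 to 28.5) in T cell-like cells, its highest level, and 4.96 (3.45 to 6.90) in acinar-like cells.

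The 3 genes of malonyl-CoA and palmitate synthesis summed to 168 (158 to 177) in acinar-like, 162 (142 to 185) in duct-like and 101 (96.7 to 106) in fibroblast-like cells. Acaca encodes the cytosolic acetyl-CoA carboxylase of fatty acid synthesis, and Acacb its mitochondrial relative, whose malonyl-CoA restrains fatty acid oxidation. Acaca hardly differed among acinar-like, duct-like and fibroblast-like cells, at 57.0 (51.5 to 62.8), 58.3 (46.5 to 72.3) and 57.8 (54.5 to 61.2). Acacb differed widely: 60.5 (54.9 to 66.5) in acinar-like, 24.8 (18.7 to 32.2) in endothelial-like, 12.7 (7.50 to 19.99) in duct-like and 2.44 (1.80 to 3.22) in fibroblast-like cells. No other class overlapped acinar-like cells in the level of Acacb. A UMI of Acacb was found in 24.7% of acinar-like cells and in 0 of 408 red blood cell-like cells, which allows a share of up to 0.735%; median depths were 5912.5 and 1452.5 UMIs, but only 144.5 of the latter lay outside globin. After thinning every cell to 800 UMIs the acinar share was 1.79% and that of T cell-like cells, which have little globin, 0.118%. Fasn was highest in duct-like cells, at 91.4 (76.3 to 108), followed by acinar-like cells at 50.2 (45.1 to 55.7), mesothelial-like cells at 48.1 (40.6 to 56.5) and fibroblast-like cells at 40.9 (38.2 to 43.8). Endothelial-like cells had 15.3 (10.6 to 21.4) of Fasn.

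Elongases differ in the chains they take. Elovl6 extends palmitate, Elovl5 acts on polyunsaturated chains, and Elovl1 and Elovl7 make longer saturated ones. Duct-like cells had the most Elovl6, at 76.6 (62.9 to 92.4), and Elovl7, at 82.2 (68.0 to 98.6). Elovl5 had a different order, with 181 (146 to 221) in smooth muscle-like, 109.9 (96.5 to 125) in endothelial-like, 96.2 (83.4 to 110.4) in T cell-like and 50.5 (47.4 to 53.7) in fibroblast-like cells, against 32.3 (23.7 to 43.1) in duct-like and 20.4 (17.2 to 24.0) in acinar-like cells. Elovl6 accordingly made up 70.3% of Elovl6 and Elovl5 UMIs in duct-like cells, 41.0% in acinar-like, 36.5% in fibroblast-like, 14.98% in endothelial-like and 13.8% in smooth muscle-like cells. Elovl7 was shared by the epithelial and mesothelial classes, at 23.5 (20.1 to 27.4) in acinar-like and 25.7 (20.3 to 32.0) in mesothelial-like cells, and stood at 1.94 (1.38 to 2.65) in fibroblast-like cells. Elovl1 was highest in mesothelial-like cells, at 69.2 (60.2 to 79.1), against 20.4 (17.2 to 24.0) in acinar-like cells.

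The 5 desaturases summed to 374 (360.3 to 389) in acinar-like, 644 (603 to 687) in duct-like and 352 (343 to 359.8) in fibroblast-like cells. Scd1 and Scd2 encode stearoyl-CoA desaturases, which make oleate and palmitoleate. Scd2 was at 367 (258 to 505) in Schwann-like, 341 (311 to 373) in duct-like, 283 (271 to 296) in acinar-like and 215 (208 to 221) in fibroblast-like cells, and between 17.4 and 51.7 in the 4 immune classes. Scd1 had a different order, led by B cell-like cells at 192 (160 to 230), then mesothelial-like cells at 62.7 (54.2 to 72.2) and fibroblast-like cells at 43.4 (40.6 to 46.4). It was at 9.50 (7.36 to 12.1) in acinar-like, 4.05 (1.85 to 7.69) in endothelial-like and 3.51 (1.14 to 8.20) in duct-like cells. The order of the classes thus differed between the neighbouring genes, although T cell-like, smooth muscle-like and endothelial-like cells were below fibroblast-like cells in both. Scd1 made up 81.9% (exact binomial interval 74.7 to 87.7) of Scd1 and Scd2 UMIs in B cell-like cells, 33.2% (29.3 to 37.2) in mesothelial-like, 16.8% (15.8 to 17.9) in fibroblast-like, 3.24% (2.52 to 4.10) in acinar-like and 1.02% (0.332 to 2.37) in duct-like cells.

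The Fads genes make polyunsaturated fatty acids, Fads2 and Fads1 in successive steps, while Fads3 acts on sphingoid bases. Fads2 was highest in duct-like cells, at 181 (159 to 204), and Schwann-like cells, at 119 (61.5 to 208), and stood at 51.7 (46.6 to 57.3) in acinar-like cells. Fads1 was at 71.0 (57.8 to 86.3) in duct-like, 35.2 (32.6 to 37.9) in fibroblast-like and 24.8 (21.3 to 28.8) in acinar-like cells. Endothelial-like cells were poor in Fads2, at 9.46 (5.85 to 14.5), and Fads1 made up 69.6% of both there, against 44.5% in fibroblast-like, 32.4% in acinar-like and 28.2% in duct-like cells. Fads3 was highest in smooth muscle-like cells, at 77.0 (55.0 to 105), and mesothelial-like cells, at 68.9 (59.9 to 78.8), and low in acinar-like cells, at 5.10 (3.57 to 7.06). T cell-like cells held 2 UMIs of Fads1, 5 of Fads2 and 2 of Fads3.

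**Figure D3:**
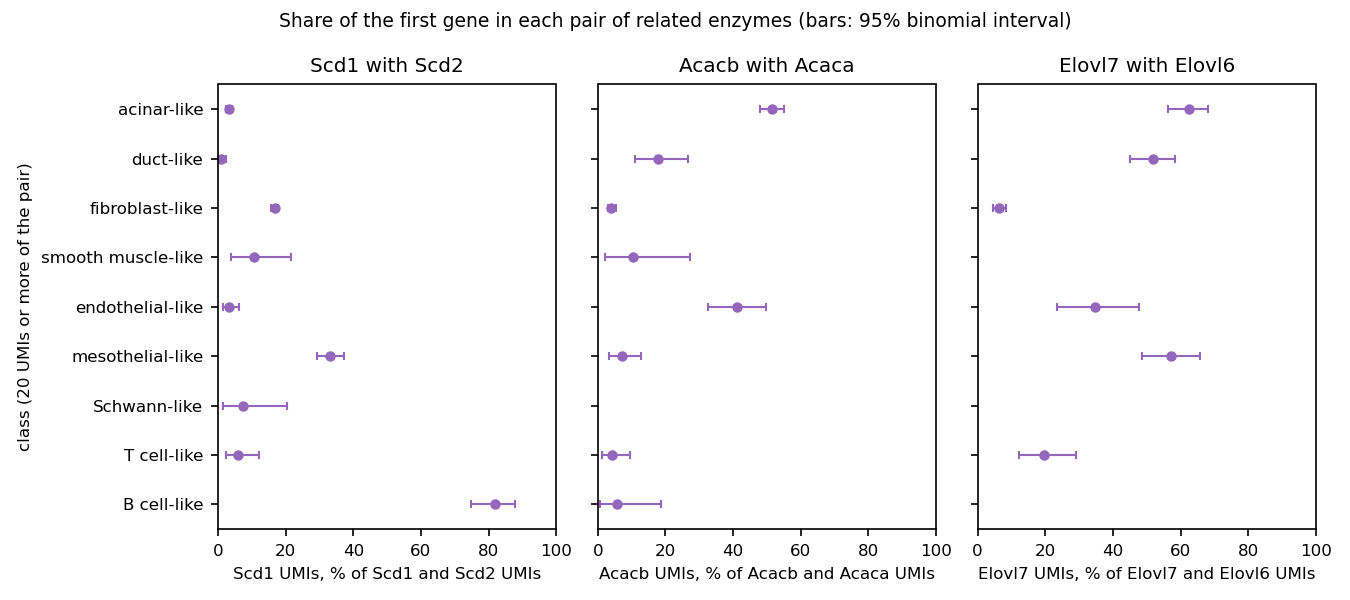
Share of the first gene of each pair in the UMIs of both (x axis, percent) for Scd1 with Scd2, Acacb with Acaca and Elovl7 with Elovl6, by class (y axis; classes with 20 UMIs or more of the pair), with exact 95% binomial intervals. Red blood cell-like, macrophage-like and dendritic-like cells are not drawn. Scd1 holds 81.9% in B cell-like and 3.24% in acinar-like cells, and Acacb 51.5% in acinar-like and 4.05% in fibroblast-like cells.

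Within the other enzyme pairs, Acacb made up 51.5% (48.0 to 55.0) of Acacb and Acaca UMIs in acinar-like cells, 41.0% (32.6 to 49.9) in endothelial-like, 17.8% (10.9 to 26.7) in duct-like and 4.05% (3.01 to 5.31) in fibroblast-like cells. Elovl7 made up 62.4% (56.3 to 68.2) of Elovl7 and Elovl6 UMIs in acinar-like cells, 57.2% in mesothelial-like, 51.8% in duct-like and 6.25% (4.48 to 8.45) in fibroblast-like cells. Such a share does not depend on the denominator, so the weight of digestive enzymes in acinar-like cells does not enter it.

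Acyl-CoA synthetases activate free fatty acids. Acsl1, the main form of fat and liver, was at 43.9 (39.2 to 49.1) in acinar-like, 35.1 (26.1 to 46.3) in duct-like and 10.2 (8.89 to 11.7) in fibroblast-like cells. Acsl4, which prefers arachidonate, was at 40.4 (35.8 to 45.4), 54.1 (42.7 to 67.6) and 36.6 (34.0 to 39.4) in the same classes. It was higher in T cell-like cells, at 97.7 (84.8 to 112), and mesothelial-like cells, at 70.5 (61.4 to 80.5), where Acsl1 was at 4.27 (1.95 to 8.10) and 9.10 (6.04 to 13.1). Acsl3 reached 37.3 (27.9 to 48.7) and Acsl5 45.7 (35.3 to 58.2) in duct-like cells, and Acsl5 reached 42.2 (33.9 to 51.9) in T cell-like cells. In red blood cell-like cells, 22 UMIs of Acsl1 gave 31.6 (19.8 to 47.9), or 155 (97.2 to 235) with globin UMIs also left out of the denominator.

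The 9 genes of glycerolipid assembly summed to 188 (178 to 198) in acinar-like, 143 (137 to 148) in fibroblast-like and 257 (231 to 284) in duct-like cells. Gpam, the mitochondrial enzyme of the first acylation of glycerol phosphate, was at 50.6 (39.6 to 63.7) in duct-like, 40.2 (35.7 to 45.2) in acinar-like, 36.4 (30.0 to 43.8) in mesothelial-like and 20.1 (18.2 to 22.2) in fibroblast-like cells, and at 3.32 (1.33 to 6.84) in T cell-like cells. Of the enzymes that make phosphatidic acid, Agpat3 varied little between classes: its interval in the highest class, T cell-like cells, overlapped those of 10 other classes, with 54.7 (49.4 to 60.4) in acinar-like, 60.7 (50.6 to 72.1) in T cell-like and 41.4 (33.4 to 50.8) in endothelial-like cells. Agpat2, the form of fat cells, reached 44.98 (34.6 to 57.4) in duct-like cells, and Agpat1 35.6 (28.2 to 44.3) in endothelial-like cells. The lipins release diglyceride. Lpin2 was at 69.5 (35.9 to 121) in macrophage-like, 65.0 (37.1 to 105) in dendritic-like and 28.5 (24.7 to 32.7) in acinar-like cells, and Lpin1 at 14.2 (11.5 to 17.2) in acinar-like and 8.75 (7.50 to 10.1) in fibroblast-like cells. The enzymes of the last step to triglyceride had 495 UMIs (Dgat1) and 112 UMIs (Dgat2) in the kept barcodes. Among the classes, Dgat1 reached at most 19.2 (9.23 to 35.4), in smooth muscle-like cells, and Dgat2 at most 7.03 (3.37 to 12.9), in duct-like cells. Mogat2, which re-esterifies monoglyceride in the gut, had 2 UMIs in the kept barcodes, of which acinar-like cells held 0, a count that allows a level of up to 0.425.

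Of both regulators, Mlxipl encodes ChREBP, and Thrsp the lipogenic cofactor Spot 14. Mlxipl was at 12.7 (7.50 to 19.99) in duct-like and 5.39 (3.81 to 7.39) in acinar-like cells, and 1 UMI was found among all fibroblast-like cells. The group of 9 barcodes rich in hormone transcripts, too few for a class, held 23 of the 86 Mlxipl UMIs of the kept barcodes, in 7 of 9 barcodes, at a level of 116 (73.7 to 174). The same barcodes held 74 UMIs of Acly, at 374 (294 to 470), spread unevenly. Of these barcodes, 1 held 24 and 1 held 21, while 3 held 2 each and 2 held 1 each. Of the lipases, Pnpla2, which starts triglyceride breakdown, was at 9.34 (8.06 to 10.8) in fibroblast-like, 37.3 (27.9 to 48.7) in duct-like, 34.2 (27.0 to 42.8) in endothelial-like and 40.5 (16.3 to 83.5) in macrophage-like cells. Pnpla3, a lipid droplet protein, was nearly absent from the count, with 18 UMIs in the kept barcodes.

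Thrsp was read mostly in endothelial-like cells. Of its 94 UMIs, 60 were in that class, at 27.0 (20.6 to 34.8), 2 in acinar-like, 5 in fibroblast-like and 1 in mesothelial-like cells, 11 in mixed and 15 in unassigned barcodes. The 15 unassigned UMIs were all in a single barcode with adipocyte markers, described further on. A UMI of Thrsp was found in 44 of 293 endothelial-like cells (15.02%), against 0 of 408 red blood cell-like cells, which allows up to 0.735%, at median depths of 4470 and 1452.5 UMIs, the latter mostly globin. T cell-like cells, at a median of 1837, held 0 UMIs in 846 cells, which allows up to 0.355%. After thinning to 800 UMIs the endothelial share was 2.05%. Of the 44 cells, 32 held 1 UMI, 9 held 2, 2 held 3 and 1 held 4, so that the signal was spread over cells. These cells were deeper than the other 249, with a median of 9528.5 against 4111 UMIs. Of genes of capillary lipid uptake, Cd36, a fatty acid transporter, was at 835 in the cells with Thrsp and 789.7 in those without. Gpihbp1, which anchors lipoprotein lipase, was at 425 and 325. Among the members, Agpat1 is given as an example, at 53.4 in the cells with Thrsp and 30.8 in those without, on 79 UMIs over both. How many other members differed as much was not counted. These differences were not tested.

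Comparison of acinar-like with fibroblast-like cells, the largest epithelial and mesenchymal classes, could be made for 30 members with at least 20 UMIs over both. Acacb was 24.8-fold higher in acinar-like cells (18.5 to 34.1), Elovl7 12.1-fold (8.52 to 17.7), Acsl1 4.29-fold (3.59 to 5.14) and Slc25a1 2.04-fold (1.74 to 2.38), and Mlxipl had 38 UMIs against 1, a ratio of 108 (18.3 to 4391). Scd1 was 4.57-fold lower (3.57 to 5.96), Fads3 2.82-fold (1.99 to 4.11), Elovl5 2.47-fold (2.08 to 2.97) and Elovl6 2.05-fold (1.66 to 2.56). The interval of Slc25a1, and those of Fads3 and Elovl6, reached below the 2-fold limit, while Gpam with a ratio of 1.9996 and Pnpla2 with 1.99 lay just under it. Thus 5 of 30 members were at least 2-fold higher and 4 at least 2-fold lower, against a background of 19.4% and 23.9% of all genes compared in these directions. The median ratio was 1.15 over the members and 0.989 over all genes. As a group, the members were no more often 2-fold apart between the classes than other genes. With enzyme UMIs in the denominator, 4 members were higher and 10 lower, and Acacb, Elovl7, Acsl1 and Mlxipl were still higher. That denominator lowers the acinar-like to fibroblast-like ratio of every gene outside the enzymes by construction. The share of all genes past 2-fold was not determined for it. Of the 38 acinar-like UMIs of Mlxipl, 33 were in barcodes of 10000 UMIs or more. At the study's upper limit of 10000 UMIs, for which that share was not determined either, 4 members were higher (Acacb, Elovl7, Acsl1 and Acsl5), without Mlxipl and Slc25a1.

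**Figure D4:**
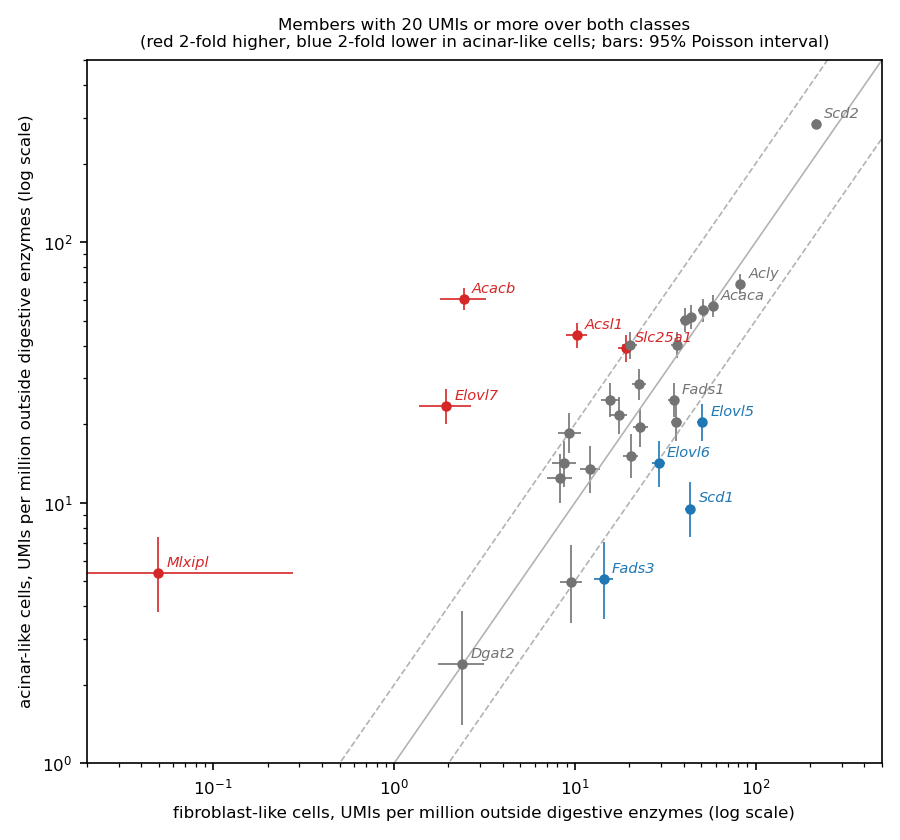
Level of the 30 members with 20 UMIs or more in fibroblast-like (x axis) and acinar-like (y axis) cells, as UMIs per 1000000 outside digestive enzymes on log scales, with 95% Poisson intervals. The solid line marks equality and the dashed lines 2-fold; 5 members (red) lie above and 4 (blue) below the dashed lines.

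Duct-like cells were compared with acinar-like cells over 30 members. Of these, 11 were at least 2-fold higher in duct-like cells, against 22.8% of all genes, and 2 at least 2-fold lower, against 12.0%, with a median ratio of 1.65 over the members and 1.29 over all genes. The higher members came from 6 of the 8 roles. NADPH and acetyl-CoA supply was represented by Me1, 8.20-fold higher (6.42 to 10.5), and Acss2, 3.54-fold (2.03 to 6.09), and elongation by Elovl6, 5.41-fold (4.08 to 7.16), and Elovl7, 3.50-fold (2.74 to 4.46). All 3 Fads genes were higher, Fads3 by 9.37-fold (6.17 to 14.4), Fads2 by 3.49-fold (2.97 to 4.11) and Fads1 by 2.86-fold (2.22 to 3.68). Agpat2, Dgat2, Mlxipl and Pnpla2 followed with ratios of 3.34, 2.92, 2.35 and 2.01, of which that of Dgat2 rested on 10 and 17 UMIs. Acacb was 4.78-fold lower (2.99 to 8.15) and Scd1 2.70-fold lower, the latter on 5 UMIs (1.10 to 8.59). The members of malonyl-CoA synthesis thus split, with Acaca level and Acacb lower. These values rest on 65 duct-like cells.

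Endothelial-like cells, against fibroblast-like cells, had 7 of 30 members at least 2-fold higher, where 18.4% of all genes were, and 4 lower, where 16.8% were. The higher members were Thrsp, at 60 against 5 UMIs and 109-fold (44.1 to 347), Acacb at 10.2-fold (6.79 to 15.3), Elovl7 at 5.34-fold, Pnpla2 at 3.66-fold, Acsl1 at 2.20-fold, Elovl5 at 2.18-fold and Agpat1 at 2.04-fold. The lower ones were Scd1 by 10.7-fold (5.62 to 23.5), Fads2 by 4.64-fold (3.01 to 7.53), Fasn by 2.67-fold and Me1 by 2.66-fold, so that the synthase and its NADPH enzyme were both low. Mesothelial-like cells differed least: 3 of 29 members were at least 2-fold higher than in fibroblast-like cells, against 13.9% of all genes, and 0 lower, against 13.2%. The 3 were Elovl7 at 13.2-fold (8.91 to 19.96), Fads3 at 4.78-fold (3.98 to 5.72) and Agpat2 at 2.14-fold (1.64 to 2.77). The gate allowed fibroblast markers in mesothelial-like barcodes. Fibroblast marker genes gave 3.13% of their UMIs, against 5.53% in fibroblast-like cells, and the part of this in the small difference was not tested. Smooth muscle-like cells had 6 of 29 members higher, against 15% of all genes, and 5 lower, against 21.2%. Fads3 led, at 5.34-fold (3.74 to 7.45), with Elovl5 at 3.58-fold (2.87 to 4.43), while Scd2 was 2.19-fold lower (1.66 to 2.94) and Scd1 3.76-fold lower (1.72 to 10.3). Fads1 and Lpin2 were lower on 8 and 5 UMIs. For Lpin1, Dgat1 and Pnpla2 the higher ratios rested on 10 or 11 UMIs, and for Acacb on 3, with an interval of 0.473 to 7.35. The 0 UMIs of Elovl7 allow a level of up to 5.77 in smooth muscle-like cells, which is above the fibroblast-like level, so a difference was not detectable at this depth.

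T cell-like cells had 11 of 29 members at least 2-fold lower than fibroblast-like cells, where 33.7% of all genes were, and 6 higher, where 19.6% were. All 5 desaturases were among the lower members. Fads1 was 37.1-fold lower (10.2 to 307), Fads2 18.5-fold (7.90 to 57.1), Fads3 15.2-fold (4.17 to 126), Scd1 13.1-fold (6.33 to 32.7) and Scd2 4.15-fold (3.43 to 5.07). Me1 was lower with 1 UMI against 409, and Gpam, Slc25a1, Acsl1 and Agpat2 were lower by between 2.33- and 6.07-fold. Dgat2, with 0 UMIs, allows a level of up to 1.42, against 2.39 in fibroblast-like cells, which is short of 2-fold. On the higher side stood Elovl7 at 4.65-fold, Acsl5 at 2.69-fold, Acsl4 at 2.67-fold, Lpin1 at 2.44-fold, Acss2 at 2.24-fold and Dgat1 at 2.13-fold. Activation and assembly genes stood on both sides, since Acsl1, Gpam, Agpat2 and Dgat2 were among the lower members. The shares of members, 37.9% lower and 20.7% higher, were near those of all genes. Acaca and Acly stood at 53.6 and 60.2 in T cell-like cells, within 2-fold of fibroblast-like cells.

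B cell-like cells differed from T cell-like cells foremost in Scd1, at 122 against 7 UMIs and 57.9-fold (27.3 to 147). Of 21 members with enough UMIs, 4 were higher, against 9.41% of all genes, and 7 lower, against 13.0%. The other higher members were Gpam at 6.65-fold (2.51 to 19.5), Acsl1 at 5.17-fold (2.08 to 13.5) and Pnpla2 at 2.46-fold (1.31 to 4.56). The lower ones were Lpin1, Elovl6, Acss2, Acsl4, Elovl1, Dgat1 and Acsl3, and the intervals of the last 3 reached equality. A UMI of Scd1 was found in 91 of 349 B cell-like cells (26.1%), against 0.827% of T cell-like cells, at median depths of 1404 and 1837 UMIs. After thinning to 800 UMIs the shares were 13.8% (10.3 to 17.8) and 0.118%. Red blood cell-like cells held Scd1 UMIs in 1.23% of cells, where 144.5 of a median of 1452.5 UMIs lay outside globin, and their Scd1 level without globin was 35.3 (11.4 to 82.3). Of the 91 cells, 69 held 1 UMI, 17 held 2, 3 held 3 and 2 held 5, so few cells carried many. The cells with Scd1 had a median of 1847 UMIs and the other 258 of 1327.5. Vpreb3, a gene of immature B cells, was at 355 in the cells with Scd1 and 602 in those without, Mki67, a marker of division, at 19.7 and 69.5, and Ighm, the IgM heavy chain, at 2662 and 2135. The Mki67 level in the cells with Scd1 rested on only a few UMIs, and differences between both sets were not tested. Scd2 was at 49.3 and 39.4, and Pparg, a regulator of fat cells, had 0 UMIs in both.

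Fibroblast-like cells, the largest class, were split by cell cycle and by marker genes. The 229 cells with cell cycle transcripts had a summed level of 922 and the 5070 without of 941, with 1 of 29 members at least 2-fold higher, against 11% of all genes, and 1 lower, against 8.36%. The higher member was Lpin2, at 55.7 against 19.0 and 2.94-fold (2.24 to 3.80), and the lower one was Acacb, on 1 UMI against 39. A further 3 subsets were taken by genes that are not members. Cells with Mfap4 or Meox2 (1089) had a summed level of 858, cells with Rspo3 or Cxcl14 (273) of 951 and cells with Pi16 or Pcolce2 (548) of 1014. Scd1 was at 20.8, 55.0 and 53.1 in that order, and made up 8.90% (6.99 to 11.1), 20.1% and 19.9% of Scd1 and Scd2 UMIs. Fads2 was at 29.3, 65.1 and 51.5, and Acly at 56.1, 74.3 and 106. The cells with Mfap4 or Meox2 were thus lowest in these 3 genes, which are examples. How many other members, or what share of all genes, had this order was not counted. These cells were also the shallowest of the 3 subsets, with a median of 2501 UMIs against 3081 and 3740.5. The part of depth was not tested.

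Acinar-like barcodes fell into 3 sets by depth and by the share of UMIs from transcripts retained in the nucleus. There were 348 of 10000 UMIs or more, with 0.785% nuclear RNA, 265 under 10000 UMIs with 0.960%, and 335 under 10000 UMIs with 0.0782%. The summed level was 1139.7, 918 and 786. Between the first and the last set, 12 of 29 members (41.4%) were at least 2-fold higher in the deeper barcodes, as were 41.5% of all genes, and 1 member was lower, against 1.74%. Acaca was at 60.9, 58.5 and 15.7 over the 3 sets, Acacb at 65.8, 51.0 and 17.5, Gpam at 42.6, 43.5 and 12.2, and Lpin2 at 30.9, 27.0 and 5.20. These 4 genes were similar in both sets with nuclear RNA and lower in the set poor in it, where each rested on few UMIs. Such a drop was as frequent over all genes as over the members, with median ratios of 1.66 and 1.62 between the first and the last set. Slc25a1, at 39.9, 34.5 and 38.4, Agpat3, at 55.7, 48.0 and 52.4, and Scd2, at 289, 229 and 289.8, did not show this drop. Scd1 was the lower member, at 8.60 in the deepest and 19.2 in the last set, the latter on few UMIs. Between both sets with nuclear RNA, 6 members (Me1, Elovl6, Fads1, Fads2, Fads3 and Pnpla2) were at least 2-fold higher in the deeper one, against 9.68% of all genes, and 0 lower, against 3.44%. All but Fads2 rested on 1 to 8 UMIs in the shallower set. The share of Acacb in Acacb and Acaca UMIs was 52.0%, 46.6% and 52.6%. The last value rested on few UMIs of either gene, so whether the share stayed the same cannot be told. What set these barcodes apart was not tested.

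**Figure D5:**
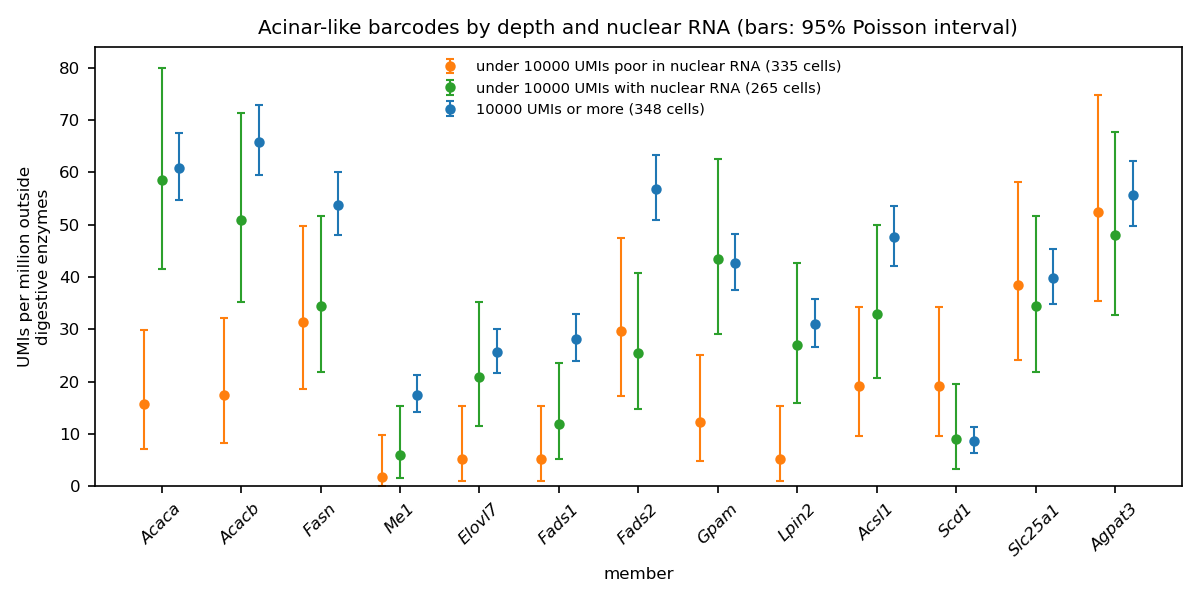
Level of 13 members in the 3 sets of acinar-like barcodes, as UMIs per 1000000 outside digestive enzymes, with 95% Poisson intervals (orange, under 10000 UMIs and poor in nuclear RNA; green, under 10000 UMIs with nuclear RNA; blue, 10000 UMIs or more). Acaca, Acacb, Gpam and Lpin2 are lowest in the orange set, and Slc25a1 and Agpat3 overlap in all 3.

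A single barcode carried the profile of a fat cell. Of the 10947 kept barcodes, 35 held a UMI of any of 8 adipocyte markers, 3 held at least 2 of the markers and 1 held 7, with 192 marker UMIs. That barcode had 7742 UMIs, of which 397 (5.13%) came from 21 members, against 0.0853% over all kept barcodes. Scd1 gave 225 of them, 13.8% of all Scd1 UMIs kept, and Acsl1 48. Thrsp gave 15 (15.96% of those kept), Dgat2 12 (10.7%) and Pnpla3 7 of 18 (38.9%), while it held 0 of the 86 UMIs of Mlxipl. It also held 0 UMIs of Elovl7, Fads1, Fads2 and Lpin2. It belonged to no class, so no class level above includes it, but the unassigned barcodes had a summed level of 1294 with it and 983 without. Another small group, of 22 neutrophil-like barcodes, held 25 UMIs of Dgat1 in 12 barcodes, a level of 475 (307 to 701).

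Of 48 other genes of the pathway, 41 could be compared between acinar-like and fibroblast-like cells, of which 11 were at least 2-fold higher, 10 lower and 20 in between, where 19.4% and 23.9% of all genes were higher and lower. Among those at 50 CPM or more in some class, the higher ones were Mgll, a monoglyceride lipase, at 135 against 33.2, Agpat5, an acyltransferase, at 65.0 against 25.7, Mlxip, which encodes MondoA, a relative of ChREBP, at 62.8 against 29.9, Slc27a1, a fatty acid transporter, at 45.1 against 14.4, Me2 at 34.0 against 9.0, Mid1ip1, a relative of Thrsp that activates acetyl-CoA carboxylase, at 25.9 against 11.1, and Acss1, the mitochondrial acetate enzyme, at 8.50 against 1.49. The lower ones were Idh1, a source of cytosolic NADPH, at 36.3 against 115, Agpat4 at 8.22 against 63.0 and, from the lipid droplet, Plin2 at 11.8 against 29.0, Plin3 at 30.2 against 70.8, Abhd5, the coactivator of the lipase of Pnpla2, at 11.3 against 24.8, and G0s2, its inhibitor, at 12.0 against 124. Genes of the lipid droplet and lipolysis thus lay on both sides, as Mgll was higher, while Pnpla2 (18.6 against 9.34), Lipe, the hormone-sensitive lipase, and Hilpda, which inhibits the lipase of Pnpla2, were within 2-fold.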

How the data were processed

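For 1 library the authors deposited counts, meaning unnormalized whole UMI numbers of every gene in every barcode (10x Genomics 3′ chemistry). Cells were released with collagenase and dead cells removed; the methods give alignment to mm10 with Cell Ranger at default settings, and the submitters' processing notes name Cell Ranger 7.1.0. That default assigns reads by strand and counts introns. Barcodes of 500 UMIs were present, so the lower UMI limit of the methods had not been applied to the values. The methods also list removal of ambient RNA, and whether the counts precede that step is not stated.

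Kept barcodes lay between limits of 800 and 100000 UMIs, with mitochondrial genes giving under 15%. Each was put in a class by marker genes (2 to 3 genes and 0.1% to 0.2% of UMIs for most classes; 20% digestive enzyme UMIs for acinar-like; 1% and 4 markers for fibroblast-like). Apart from the cases named next, barcodes with markers of several classes were set apart as mixed (723). Those without enough markers were unassigned (538). Mesothelial-like barcodes could also pass the fibroblast gate, and smooth muscle-like and pericyte-like ones could with under 3% fibroblast markers. Barcodes with markers of several vessel wall classes kept the class with a clearly dominant share. Acinar-like and mesothelial-like barcodes could also hold duct markers. Members and gene lists were chosen with earlier results of these data known, and gate limits after seeing the data; no member is a gate marker. UMIs were summed per class. Levels have exact Poisson, shares exact Clopper-Pearson and ratios exact conditional 95% intervals. With 1 library no test was made; a ratio counted as higher or lower at 2-fold, over genes with at least 20 UMIs in both classes together, and the share of all such genes past 2-fold is the background. A count of 0 was given the limit of 3 counts. All members were accounted for by role; other pathway genes were named at 50 CPM or more in some class and 2-fold apart. Positions were from GENCODE M21. Python 3.11.15, numpy 2.4.6, scipy 1.17.1, pandas 2.3.3 and scanpy 1.11.5 were used, and interval and ratio code was tested on simulated data. Depth ranged over classes from a median of 1404 to 13157 UMIs per cell. Alternatives were other UMI and mitochondrial limits, a stricter gate, removal of Scrublet doublets, subtraction of an ambient profile, enzyme UMIs in the denominator, means over cells, no UMI minimum and classes from clusters.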

Additional observations from a re-analysis of the deposited data

How the results depend on the processing

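No paired analysis was possible because there was 1 library, and no replicate could be left out. The number of members at least 2-fold lower in acinar-like than in fibroblast-like cells moved from 4 to 7 with an upper limit of 10000 UMIs, 7 with the stricter gate, 10 with enzyme UMIs in the denominator and 8 with classes from clusters; it was 7 in acinar-like cells under 10000 UMIs with nuclear RNA and 10 in those poor in it, both chosen after seeing the data. The number higher stayed between 4 and 7 except in the cells poor in nuclear RNA, where it was 2 (Acacb and Elovl7). At the upper limit of 10000 UMIs it was 4, without Slc25a1 and Mlxipl but with Acsl5. The share of all genes past 2-fold was not determined for these alternatives, so whether a change in these counts is particular to the members cannot be told. Scd1, Fads3 and Elovl5 were lower in every alternative, and Elovl6 in all but acinar-like cells of 10000 UMIs or more. The summed level of acinar-like cells moved from 1090.0 to 857 (upper limit of 10000), 983 (stricter gate), 611 (enzyme UMIs in the denominator), 924 (mean over cells) and 991 (clusters), and was 1139.7, 918 and 786 in its 3 sets; that of fibroblast-like cells moved from 939.9 to 960.4 with clusters. The acinar-like sum was thus above the fibroblast-like one in the values reported but below it with the upper limit of 10000 UMIs (857 against 939.4), with enzyme UMIs in the denominator (611 against 929), as a mean over cells (924 against 939), and in both sets under 10000 UMIs. Enzyme UMIs enlarge the acinar-like denominator by construction; for the other settings the cause was not tested. The sum of red blood cell-like cells moved from 157 to 768 without globin. Under the upper limit of 10000 UMIs and the mitochondrial limit of 5% duct-like cells numbered 29 and 47, and no cluster was named duct-like, so these alternatives give no duct-like value. Of the values of single members and classes, 415 stayed within their counting interval and 132 moved. Scrublet marked 4.91% of barcodes, 36.9% of the mixed ones. The members of a few UMIs (Mogat2, Pnpla3, Thrsp, Mlxipl, Dgat2) and classes under 100 cells are limited by depth.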
